A study of Homo sapiens with 12 samples.

Results

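A total of 45 genes of cell division were followed in RCC4 cells. They encode the cyclins and the cyclin-dependent kinase of mitosis, the mitotic kinases, the proteins of the kinetochore and of the spindle checkpoint, the spindle motors and the machinery of cytokinesis. The genes were listed by symbol and function, by a rule that uses no measured value but was set with earlier results of these data known, and all 45 were on the array, among 11963 genes measured. RCC4 is a renal clear cell carcinoma line that lacks working VHL, the protein through which an E3 ubiquitin ligase binds hypoxia-inducible factors and has them degraded. Cells carrying an empty vector (Vec) and cells given VHL back (VHL) spent 6 h either in complete DMEM (control) or in DMEM lacking cystine (deprived), with 3 single-colour arrays in each of the 4 groups. The labels name dialysed serum for the deprived medium alone, so the change of medium may include a change of serum. They call the arrays of a group biological replicates and do not say whether each came from a culture of its own, so p-values measure the spread between these arrays. The labels name 1 Vec line and 1 VHL line, without saying whether either is a clone, so an effect of VHL cannot be told apart from any other difference between those lines.

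Entry into mitosis is driven by CDK1 bound to cyclin A or cyclin B, which CDC25 phosphatases activate by removing inhibitory phosphates. Polo-like and Aurora kinases then build the spindle, kinetochores attach chromosomes to it, and the checkpoint kinases BUB1 and TTK with MAD2 and BUBR1 hold back anaphase until attachment is complete. Most of these genes are transcribed in a burst in G2 and M phase through CHR and CCAAT promoter elements bound by the MuvB complex with B-MYB or FOXM1 and by NF-Y, so their RNA level in a culture reflects both how many cells are near mitosis and how much RNA each of those cells holds. Arrays of whole cultures cannot tell these apart.

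All 45 genes were well expressed. Values are log2 expression per gene, and their means over the 12 arrays ran from 7.89 for KIF15 to 12.51 for PTTG1, with a median of 10.49, which lay above 85.4% of all genes. None was dim, which is used here for a mean at or under 6.46, the level that 40% of all probe sets do not exceed. The median SD within groups was 0.06 for these genes and 0.08 for all genes.

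Markers of kidney epithelium or of renal carcinoma lines were high, with means of 10.92 for PAX8, 11.95 for KRT18 and 14.23 for VIM. All 7 measured lay above the dim limit. Of 4 measured blood cell markers 3 were dim, among them PTPRC (4.38), while HBB was above the limit at 6.98, and all 3 endothelial markers were dim, with means from 5.04 to 5.67. The only probe set for VHL was dim too, between 5.80 and 6.07 on all arrays, and VHL against Vec cells in control medium differed by 0.14 ± 0.05 (limma adjusted p = 0.0532), so it cannot check the reconstitution. Among the 45 mitotic genes, Vec control replicate 2 held the highest value of its group for 24, Vec deprived replicate 1 the lowest for 25, Vec deprived replicate 3 the highest for 25 and VHL deprived replicate 1 the lowest for 24. The lower quartiles of the 12 arrays ran from 5.65 to 5.74.

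**Figure D1:**
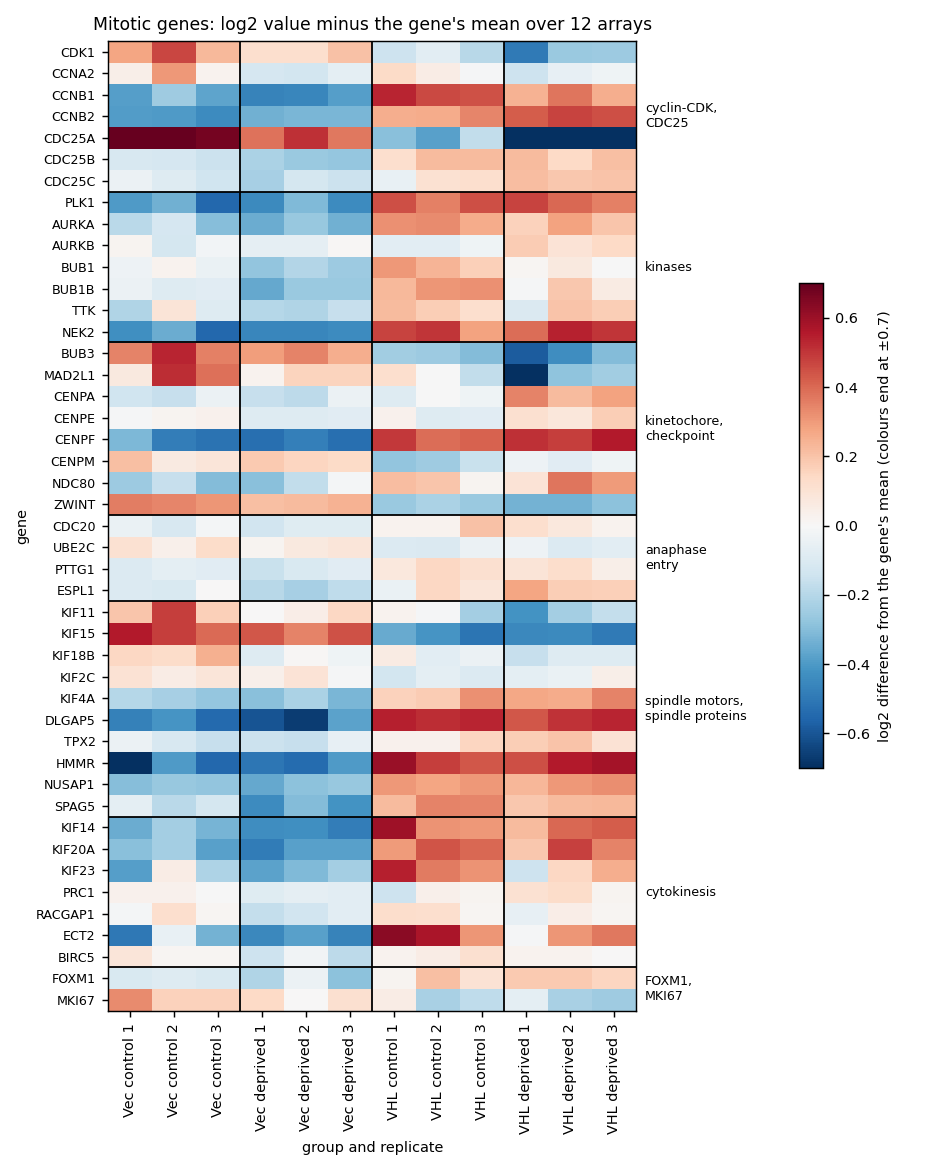
Log2 value of each of the 45 genes (rows, by role) on each of the 12 arrays (columns, by group), minus the mean of that gene over all arrays; the colour scale ends at ±0.7. Most rows switch between blue and red at the border of Vec and VHL cells, with CDC25A, CDK1, BUB3, ZWINT and KIF15 running against the majority, while the border between control and deprived medium within a line is faint.

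The larger contrast was between the lines. In VHL cells most mitotic genes were higher than in Vec cells, among them the cyclins B, PLK1, NEK2, CENPF, HMMR and DLGAP5, while a smaller group that included CDC25A, KIF15, BUB3, ZWINT and CDK1 was lower. In control medium 25 of the 45 genes were higher and 12 lower (limma adjusted p under 0.05, the threshold for calling a gene here), and in deprived medium 31 were higher and 10 lower. The lines differed widely in other genes too, including the markers of kidney epithelium or of renal carcinoma lines. Of these, 3 of 7 were lower in VHL cells in control medium, and 4 were lower and 1 higher in deprived medium. KRT19 had means of 10.18 in Vec and 8.82 in VHL control cells, and KRT8 of 11.56 and 10.94. The part of this in the differences of mitotic genes was not tested. Over all 11963 genes, 46.1% were called in control medium (23.1% higher, 23% lower) and 47.2% in deprived medium (24.2% higher, 23% lower). When the genes above the dim limit were tested alone, the shares were 65.2% and 65.8%, and those of the mitotic genes in the same fit were 82.2% and 93.3%. In that fit 55.6% and 71.1% of the mitotic genes were called higher, against 33% and 33.6%, and 26.7% and 22.2% were called lower, against 32.2% and 32.1%. In control medium the arrays of the lines did not overlap for 24 higher and 11 lower genes (26.7% and 26.5% of all genes), and in deprived medium for 32 and 10 (27.9% and 26.4%). The median difference of the 45 genes was 0.18 in control and 0.28 in deprived medium, and that of all genes was 0 to 2 decimals in both. No test of the list as a whole was made.

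The same call was made in both media for 35 genes, 25 higher and 10 lower, or 55.6% and 22.2%, where 19.8% of all genes were called higher in both media and 19.2% lower in both. KIF18B and KIF2C were called lower in control medium alone, and AURKB, BIRC5, CENPA, CENPE, ESPL1 and PRC1 were called higher in deprived medium alone. CCNA2 and RACGAP1 were called in neither medium, and no gene was called in opposite directions. Differences of at least 1.5-fold were found for 15 genes in each medium. Of all 11963 genes, 1508 in control and 1491 in deprived medium differed by that much. Differences of at least 2-fold were found for HMMR, DLGAP5 and CDC25A in both media, and for CENPF in deprived medium. Of all genes, 510 in control and 524 in deprived medium differed by at least 2-fold. The comparisons in control and in deprived medium share no arrays, but each shares arrays with the comparisons of media given further on.

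**Figure D2:**
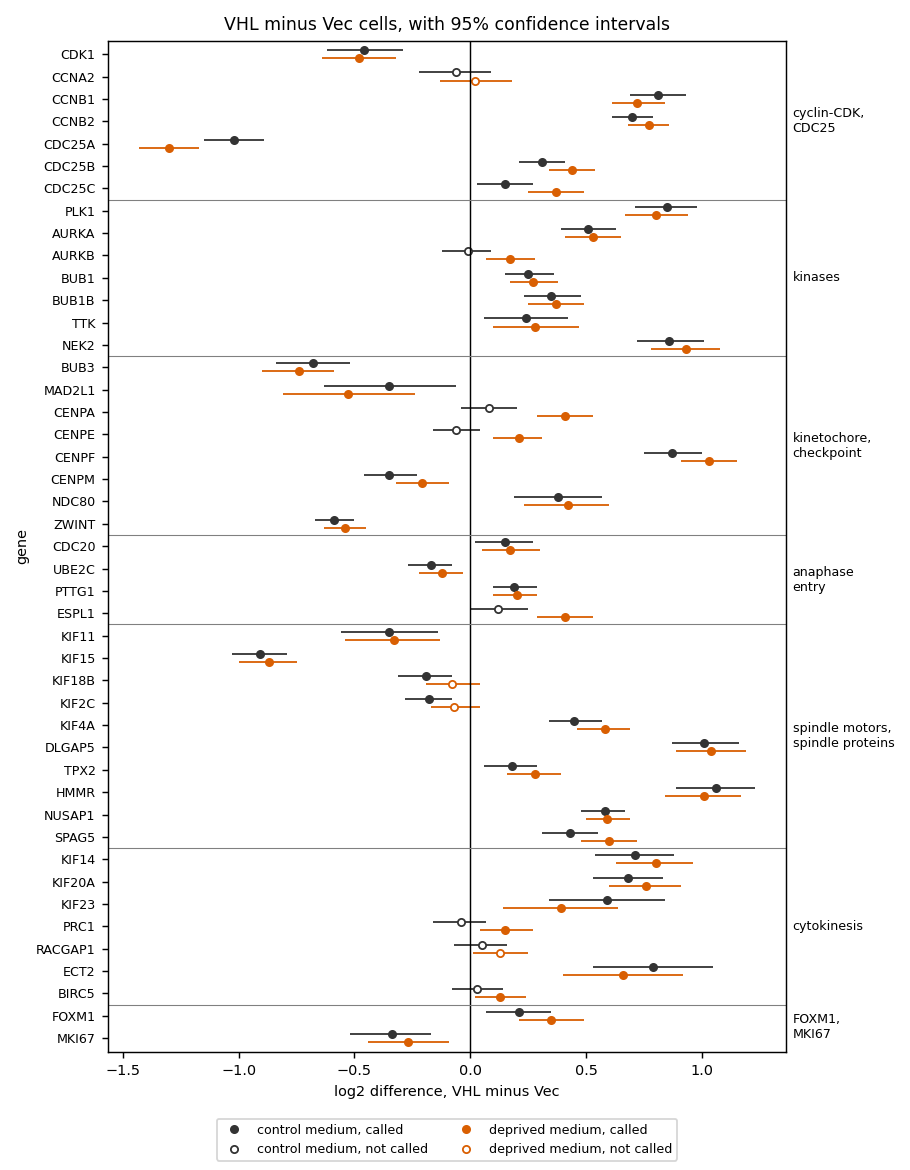
Difference between VHL and Vec cells on the log2 scale (x axis) for each of the 45 genes (y axis, by role), in control medium (black) and deprived medium (orange); bars are 95% confidence intervals, filled points were called at a limma adjusted p under 0.05 and open points were not. The 7 kinases lie between -0.01 and 0.93, the kinetochore and checkpoint genes lie on both sides of 0, and CDC25A lies farthest to the left, at -1.02 and -1.30.

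Among the cyclins, CDK1 and the CDC25 phosphatases, both cyclins B were higher in VHL cells while their partner kinase was lower. CCNB1, cyclin B1, read 11.21, 11.35 and 11.23 in Vec control, 11.13, 11.14 and 11.21 in Vec deprived, 12.13, 12.06 and 12.04 in VHL control and 11.84, 11.97 and 11.85 in VHL deprived cells. All 6 VHL arrays lay above all 6 Vec arrays, and the difference was 0.81 ± 0.05 in control medium (limma adjusted p = 4.71e-08) and 0.72 ± 0.05 in deprived medium (limma adjusted p = 1.37e-07), or 1.76-fold and 1.65-fold. CCNB2, cyclin B2, read 10.33, 10.32 and 10.28 in Vec control, 10.38, 10.40 and 10.40 in Vec deprived, 10.97, 10.98 and 11.06 in VHL control and 11.14, 11.19 and 11.17 in VHL deprived cells. Here and further on, a difference on the log2 scale is given with its standard error and, in brackets, the limma adjusted p, first for control and then for deprived medium. Again the lines did not overlap for CCNB2, with differences of 0.70 ± 0.04 (2.05e-08) and 0.77 ± 0.04 (7.59e-09). CDK1 itself read 12.51, 12.70 and 12.46 in Vec control, 12.35, 12.35 and 12.44 in Vec deprived, 12.09, 12.16 and 12.04 in VHL control and 11.74, 11.97 and 11.98 in VHL deprived cells, so that every VHL array was under every Vec array, with differences of -0.46 ± 0.08 in control (2.03e-04) and -0.48 ± 0.08 in deprived medium (1.33e-04). CCNA2, cyclin A2, was not called in either medium on the probe set used, at -0.06 ± 0.07 (0.527, 95% interval -0.22 to 0.09) and 0.02 ± 0.07 (0.828, 95% interval -0.13 to 0.18).

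The CDC25 phosphatases split. CDC25A, which also acts at the entry into S phase, read 9.96, 9.96 and 9.85 in Vec control, 9.56, 9.69 and 9.55 in Vec deprived, 8.89, 8.80 and 9.01 in VHL control and 8.28, 8.29 and 8.32 in VHL deprived cells. It was 2.03-fold lower in VHL cells in control medium (-1.02 ± 0.06, 1.44e-08) and 2.46-fold lower in deprived medium (-1.30 ± 0.06, 1.46e-09), the largest difference of any of the 45 genes, and the 4 groups did not overlap. CDC25B, which starts CDK1 activation at the centrosome, was higher by 0.31 ± 0.05 (6.99e-05) and 0.44 ± 0.05 (2.80e-06). CDC25C, which removes the inhibitory phosphates of CDK1 at mitotic entry, was higher by 0.15 ± 0.06 (0.0425) and 0.37 ± 0.06 (8.27e-05). The call for CDC25C in control medium was lost without Vec control replicate 2 (0.0835), Vec control replicate 3 (0.142), Vec deprived replicate 3 (0.0501), VHL control replicate 2 (0.14), VHL control replicate 3 (0.153), VHL deprived replicate 1 (0.0502), VHL deprived replicate 2 (0.0546) or VHL deprived replicate 3 (0.0548) (limma adjusted p in brackets).

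Of the 7 mitotic kinases, 6 were higher in VHL cells in control medium and all 7 in deprived medium, and none was lower. Of all genes 23.1% and 24.2% were called higher, and of genes above the dim limit, tested alone, 33% and 33.6%. NEK2, a centrosome kinase that separates the spindle poles, read 10.27, 10.35 and 10.15 in Vec control, 10.24, 10.24 and 10.26 in Vec deprived, 11.17, 11.20 and 10.98 in VHL control and 11.09, 11.24 and 11.20 in VHL deprived cells. PLK1, the polo-like kinase of centrosome maturation and mitotic entry, read 8.41, 8.47 and 8.26 in Vec control, 8.36, 8.50 and 8.37 in Vec deprived, 9.26, 9.16 and 9.26 in VHL control and 9.28, 9.21 and 9.16 in VHL deprived cells. AURKA, the Aurora kinase of the spindle poles, read 11.45, 11.52 and 11.34 in Vec control, 11.29, 11.37 and 11.30 in Vec deprived, 11.96, 11.97 and 11.90 in VHL control and 11.80, 11.92 and 11.83 in VHL deprived cells. For these 3 kinases the lines did not overlap in either medium. NEK2 was higher by 0.86 ± 0.07 in control (2.02e-07) and 0.93 ± 0.07 in deprived medium (9.62e-08), PLK1 by 0.85 ± 0.06 (1.47e-07) and 0.80 ± 0.06 (2.36e-07), and AURKA by 0.51 ± 0.05 (4.43e-06) and 0.53 ± 0.05 (2.70e-06).

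The checkpoint kinases differed by less. BUB1, which marks the inner centromere by phosphorylating histone H2A, was higher by 0.25 ± 0.05 (7.26e-04) and 0.27 ± 0.05 (3.93e-04). BUB1B, whose product BUBR1 is part of the inhibitor of the anaphase-promoting complex, was higher by 0.35 ± 0.06 (1.43e-04) and 0.37 ± 0.06 (9.68e-05). TTK, also called MPS1, which recruits the checkpoint to kinetochores, was higher by 0.24 ± 0.08 (0.032) and 0.28 ± 0.08 (0.0124). The call for TTK was lost in control medium without Vec control replicate 1 (0.146), Vec control replicate 3 (0.0803), VHL control replicate 1 (0.0973) or VHL control replicate 2 (0.0694), and in deprived medium without VHL deprived replicate 2 (0.0585) or VHL deprived replicate 3 (0.0529). AURKB, the kinase of the chromosomal passenger complex that corrects faulty attachments, gave -0.01 ± 0.05 (0.848) in control medium and was higher by 0.17 ± 0.05 (0.00985) in deprived medium.

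Kinetochore and checkpoint genes went both ways, with 2 of 8 higher and 4 lower in control medium and 4 higher and 4 lower in deprived medium. All genes split both ways too, with 23.1% higher and 23% lower in control medium and 24.2% and 23% in deprived medium. For genes above the dim limit, tested alone, these shares were 33%, 32.2%, 33.6% and 32.1%. CENPF, a large protein of the outer kinetochore that accumulates in G2, read 10.65, 10.48 and 10.45 in Vec control, 10.44, 10.49 and 10.44 in Vec deprived, 11.46, 11.36 and 11.38 in VHL control and 11.48, 11.45 and 11.52 in VHL deprived cells. It was 1.83-fold higher in VHL cells in control medium (0.87 ± 0.06, 3.23e-08) and 2.04-fold higher in deprived medium (1.03 ± 0.06, 6.51e-09), with a gap between the lines wider than the spread of any group. NDC80, the microtubule-binding subunit of the kinetochore, was higher by 0.38 ± 0.09 (0.00231) and 0.42 ± 0.09 (0.00122).

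The genes lower in VHL cells were BUB3, ZWINT, CENPM and MAD2L1. BUB3, which carries BUB1 and BUBR1 to kinetochores, read 12.20, 12.39 and 12.21 in Vec control, 12.15, 12.20 and 12.11 in Vec deprived, 11.61, 11.60 and 11.55 in VHL control and 11.27, 11.42 and 11.55 in VHL deprived cells. ZWINT, which links the kinetochore scaffold to the checkpoint complex RZZ, read 11.96, 11.94 and 11.91 in Vec control, 11.81, 11.82 and 11.84 in Vec deprived, 11.34, 11.38 and 11.34 in VHL control and 11.27, 11.27 and 11.31 in VHL deprived cells. Neither showed any overlap between the lines, and BUB3 was lower in VHL cells, with differences of -0.68 ± 0.07 (3.48e-06) and -0.74 ± 0.07 (1.49e-06), as was ZWINT, with -0.59 ± 0.04 (6.05e-08) and -0.54 ± 0.04 (1.27e-07). CENPM, a subunit of the inner kinetochore, read 10.06, 9.91 and 9.93 in Vec control, 10.03, 10.00 and 9.98 in Vec deprived, 9.57, 9.60 and 9.69 in VHL control and 9.81, 9.77 and 9.82 in VHL deprived cells. It was lower on every VHL array than on every Vec array, with differences of -0.35 ± 0.05 (8.86e-05) and -0.21 ± 0.05 (0.00525). MAD2L1, which encodes the checkpoint protein MAD2, had the widest spread of the list, with a lone low value of 9.98 on VHL deprived replicate 1 against 10.41 and 10.45 on the other arrays of that group. It differed by -0.35 ± 0.13 (0.0458) in control medium and by -0.53 ± 0.13 (0.00438) in deprived medium, and its call in control medium was lost without Vec control replicate 2 (0.181), Vec control replicate 3 (0.124), Vec deprived replicate 1 (0.054), Vec deprived replicate 2 (0.0573), Vec deprived replicate 3 (0.0574), VHL control replicate 2 (0.085) or VHL control replicate 3 (0.163). CENPA, the centromeric histone, and CENPE, a kinetochore motor, gave 0.08 (0.296) and -0.06 (0.312) in control medium and were higher by 0.41 ± 0.06 (3.25e-05) and 0.21 ± 0.05 (0.00246) in deprived medium.

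The 4 genes of anaphase entry differed little. PTTG1, securin, which holds separase inactive, read 12.41, 12.44 and 12.43 in Vec control, 12.35, 12.40 and 12.43 in Vec deprived, 12.58, 12.65 and 12.62 in VHL control and 12.60, 12.63 and 12.55 in VHL deprived cells. Its VHL arrays lay just above its Vec arrays, by 0.19 ± 0.04 (0.00248) and 0.20 ± 0.04 (0.002), and ESPL1, separase itself, which cuts cohesin, gave 0.12 ± 0.06 (0.0964) and 0.41 ± 0.06 (4.31e-05). Without VHL control replicate 1, ESPL1 was called in control medium as well (0.0241). CDC20, the activator of the anaphase-promoting complex, read 11.53, 11.46 and 11.56 in Vec control, 11.44, 11.49 and 11.49 in Vec deprived, 11.60, 11.60 and 11.78 in VHL control and 11.69, 11.65 and 11.60 in VHL deprived cells. It was higher by 0.15 ± 0.06 (0.0498) and 0.17 ± 0.06 (0.0207). UBE2C, the ubiquitin-conjugating enzyme of that complex, read 11.65, 11.58 and 11.67 in Vec control, 11.56, 11.61 and 11.63 in Vec deprived, 11.45, 11.44 and 11.50 in VHL control and 11.51, 11.45 and 11.47 in VHL deprived cells. It was lower in VHL cells, with differences of -0.17 ± 0.04 (0.00557) and -0.12 ± 0.04 (0.0359). For CDC20 and UBE2C alike the 6 VHL arrays did not overlap the 6 Vec arrays. The call for CDC20 in control medium was at the threshold and survived only the removal of VHL control replicate 1 or 2, with a limma adjusted p between 0.0540 and 0.224 in the other 10 fits that left out 1 array. In deprived medium CDC20 was lost without Vec deprived replicate 1 (0.0711), VHL deprived replicate 1 (0.0697) or VHL deprived replicate 2 (0.052), and UBE2C without Vec deprived replicate 2 (0.0874), Vec deprived replicate 3 (0.103), VHL deprived replicate 2 (0.106) or VHL deprived replicate 3 (0.087).

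Among spindle motors and spindle proteins, 6 of 10 were higher and 4 lower in control medium, and 6 were higher and 2 lower in deprived medium. The shares of all genes were 23.1% higher and 23% lower, and 24.2% and 23%. Those of genes above the dim limit, tested alone, were 33% and 32.2%, and 33.6% and 32.1%. HMMR, a hyaluronan receptor that also binds spindle microtubules, read 10.23, 10.55 and 10.40 in Vec control, 10.44, 10.41 and 10.55 in Vec deprived, 11.55, 11.43 and 11.38 in VHL control and 11.40, 11.50 and 11.53 in VHL deprived cells. DLGAP5, also called HURP, which stabilizes the fibres that pull chromosomes, read 8.92, 8.98 and 8.85 in Vec control, 8.79, 8.73 and 9.02 in Vec deprived, 9.94, 9.91 and 9.93 in VHL control and 9.83, 9.90 and 9.93 in VHL deprived cells. All VHL arrays were above all Vec arrays for both, by 1.06 ± 0.08 (1.06e-07) and 1.01 ± 0.08 (1.69e-07) for HMMR and by 1.01 ± 0.07 (4.67e-08) and 1.04 ± 0.07 (3.61e-08) for DLGAP5, close to 2-fold in each case. NUSAP1, a microtubule bundler, read 10.58, 10.61 and 10.60 in Vec control, 10.52, 10.59 and 10.61 in Vec deprived, 11.18, 11.15 and 11.18 in VHL control and 11.11, 11.18 and 11.20 in VHL deprived cells, and was higher by 0.58 ± 0.04 (1.78e-07) and 0.59 ± 0.04 (1.33e-07). KIF4A, a chromosome-arm motor, was higher by 0.45 ± 0.05 and 0.58 ± 0.05, SPAG5, or astrin, by 0.43 ± 0.06 and 0.60 ± 0.06, and TPX2, the activator of Aurora A on the spindle, by 0.18 ± 0.05 (0.0163) and 0.28 ± 0.05 (7.60e-04). TPX2 in control medium was not called without Vec control replicate 3 (0.07) or VHL control replicate 3 (0.0761).

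The motors that push the spindle poles apart were lower in VHL cells. KIF15 read 8.45, 8.38 and 8.29 in Vec control, 8.33, 8.24 and 8.34 in Vec deprived, 7.54, 7.48 and 7.38 in VHL control and 7.44, 7.45 and 7.40 in VHL deprived cells. Its difference was -0.91 ± 0.06 (2.20e-08) in control and -0.87 ± 0.06 (3.17e-08) in deprived medium, with no overlap. KIF11, or Eg5, the main motor of bipolar spindle assembly, differed by -0.35 ± 0.10 (0.0084) and -0.33 ± 0.10 (0.0109), and was not called in deprived medium without VHL deprived replicate 1 (0.0513). KIF18B and KIF2C, which shorten microtubules, gave -0.19 (0.0081) and -0.18 (0.00627) in control medium and -0.08 (0.27) and -0.07 (0.281) in deprived medium.

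Of the 7 cytokinesis genes 4 were higher in control medium and 6 in deprived medium, and none was lower. The shares called higher were 23.1% and 24.2% of all genes, and 33% and 33.6% of genes above the dim limit, tested alone. KIF14, a motor that recruits citron kinase to the midbody, read 10.32, 10.43 and 10.34 in Vec control, 10.23, 10.24 and 10.18 in Vec deprived, 11.26, 10.98 and 10.97 in VHL control and 10.89, 11.07 and 11.09 in VHL deprived cells. KIF20A, which brings the passenger complex to the midzone, read 10.03, 10.08 and 9.94 in Vec control, 9.83, 9.94 and 9.94 in Vec deprived, 10.62, 10.76 and 10.72 in VHL control and 10.51, 10.80 and 10.67 in VHL deprived cells. ECT2, the exchange factor that activates RHOA at the cleavage plane, read 10.18, 10.63 and 10.35 in Vec control, 10.23, 10.30 and 10.21 in Vec deprived, 11.31, 11.25 and 10.99 in VHL control and 10.67, 10.99 and 11.05 in VHL deprived cells. In each case the lines did not overlap. KIF14 was higher by 0.71 ± 0.08 (5.13e-06) and 0.80 ± 0.08 (1.73e-06), KIF20A by 0.68 ± 0.07 (3.01e-06) and 0.76 ± 0.07 (1.11e-06), and ECT2, with a wider spread, by 0.79 ± 0.12 (9.68e-05) and 0.66 ± 0.12 (4.76e-04). KIF23, the motor of the centralspindlin complex, was higher by 0.59 ± 0.11 (7.03e-04) and 0.39 ± 0.11 (0.0124), and in deprived medium it was not called without VHL deprived replicate 3 (0.0614).

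RACGAP1, the partner of KIF23 in centralspindlin, differed by 0.05 and 0.13 and was not called (0.535 and 0.062). In deprived medium RACGAP1 was called without Vec control replicate 2 (0.0495) or VHL deprived replicate 1 (0.0440). PRC1, which bundles the central spindle, and BIRC5, or survivin, of the passenger complex, gave -0.04 and 0.03 in control medium and were called higher in deprived medium by 0.15 ± 0.05 (0.033) and 0.13 ± 0.05 (0.0471). PRC1 lost its call without Vec deprived replicate 1 (0.0807), Vec deprived replicate 2 (0.0624), Vec deprived replicate 3 (0.0671), VHL deprived replicate 1 (0.0852) or VHL deprived replicate 2 (0.112). BIRC5 kept it only when the array removed was Vec control replicate 1 or Vec deprived replicate 2, and otherwise had a limma adjusted p between 0.0507 and 0.168.

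FOXM1 and MKI67 went opposite ways. FOXM1, a transcription factor of G2 and M phase genes, read 10.59, 10.61 and 10.59 in Vec control, 10.49, 10.66 and 10.41 in Vec deprived, 10.72, 10.91 and 10.80 in VHL control and 10.88, 10.88 and 10.85 in VHL deprived cells. It was higher in VHL cells, without overlap, by 0.21 ± 0.06 (0.0146) and 0.35 ± 0.06 (4.46e-04), though not called in control medium without VHL control replicate 2 (0.0728). MKI67, the proliferation marker Ki-67 that coats mitotic chromosomes, read 10.04, 9.87 and 9.87 in Vec control, 9.85, 9.71 and 9.82 in Vec deprived, 9.76, 9.48 and 9.53 in VHL control and 9.64, 9.48 and 9.46 in VHL deprived cells. It was lower in VHL cells within each medium, with differences of -0.34 ± 0.08 (0.00327) and -0.27 ± 0.08 (0.0153), and the call in deprived medium was lost without Vec deprived replicate 1 (0.0569), VHL deprived replicate 2 (0.0529) or VHL deprived replicate 3 (0.0613).

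**Figure D3:**
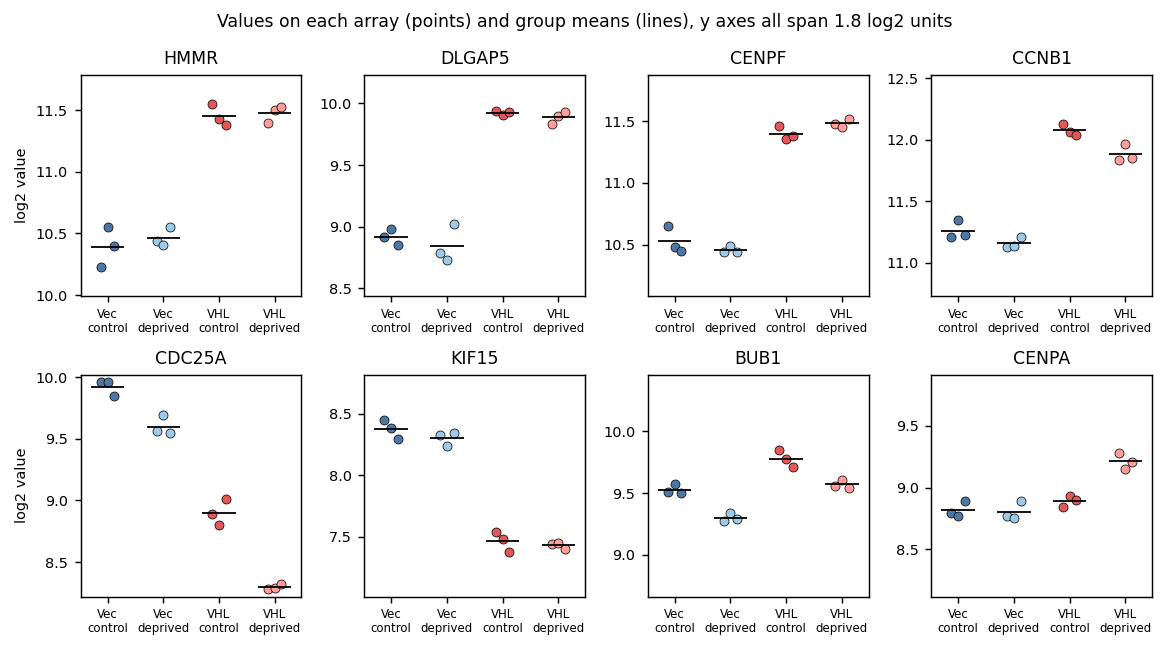
Log2 value on each array (points) and group mean (lines) for 8 genes in the 4 groups; each y axis spans 1.8 log2 units, so distances can be compared between panels. HMMR, DLGAP5, CENPF and CCNB1 are high on every VHL array, KIF15 is low there, CDC25A steps down at both changes, BUB1 falls in both lines on deprivation, and CENPA rises in VHL cells from 8.89 to 9.22.

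Genes higher and genes lower in VHL cells both had promoters with elements of G2 and M phase transcription. As examples, 6 promoters are shown, 3 of each kind. They were picked by no set rule and do not stand for their kinds. The windows come from RefSeq on assembly GRCh38.p14, and 36 of the 45 genes matched 47 windows, which run from 250 bases before to 50 bases after an annotated start. Searched on both strands were the CHR element (TTTGAA or TTCGAA), the NF-Y box (CCAAT) and an E2F element (TTCCCGCC). The 120 bases before the start are printed 5′ to 3′ along the gene, with each CHR element and NF-Y box in capitals. Neighbouring matches can share bases, as the final A of a CHR element and the first of ATTGG do for MKI67.
HMMR: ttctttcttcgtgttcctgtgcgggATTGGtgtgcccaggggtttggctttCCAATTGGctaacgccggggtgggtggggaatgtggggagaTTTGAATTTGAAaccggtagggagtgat
CCNB2: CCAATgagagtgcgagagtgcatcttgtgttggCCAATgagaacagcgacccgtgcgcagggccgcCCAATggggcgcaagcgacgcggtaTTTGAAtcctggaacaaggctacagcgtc
PLK1: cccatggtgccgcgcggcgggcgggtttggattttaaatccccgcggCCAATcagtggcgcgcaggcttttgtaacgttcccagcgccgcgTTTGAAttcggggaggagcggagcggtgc
MKI67: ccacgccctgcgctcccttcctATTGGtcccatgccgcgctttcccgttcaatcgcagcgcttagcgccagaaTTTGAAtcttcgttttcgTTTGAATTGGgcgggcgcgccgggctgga
KIF15: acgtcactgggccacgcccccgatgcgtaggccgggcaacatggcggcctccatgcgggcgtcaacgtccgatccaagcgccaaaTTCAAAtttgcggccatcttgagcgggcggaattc
CDC25A: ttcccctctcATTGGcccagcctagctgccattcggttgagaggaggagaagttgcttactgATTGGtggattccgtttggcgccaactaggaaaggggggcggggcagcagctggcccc
The first 3 belong to genes higher in VHL cells and lie at chr5:163460512-163460631 on the plus strand, chr15:59105026-59105145 on the plus strand and chr16:23678769-23678888 on the plus strand. The last 3 belong to genes lower in VHL cells and lie at chr10:128126424-128126543 on the minus strand, chr3:44761674-44761793 on the plus strand and chr3:48188418-48188537 on the minus strand. CCNB2, PLK1 and MKI67 each have a CHR element that begins 29 bases before the start, MKI67 has another at 47 bases, HMMR has 2 at 28 and 22 bases, and KIF15 has 1 at 35 bases on the other strand. CDC25A has no CHR element and 2 NF-Y boxes in this stretch. Among genes lower in both media with a window, CDC25A alone lacked a CHR element and KIF15 alone lacked an NF-Y box. Of the genes higher in both media, CCNB1, NEK2, KIF20A and PTTG1 had no CHR element in any window and are not shown.

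A CHR element was found in 31 of the 47 windows, or 66%, against 16.4% of the 35116 windows in the table. The NF-Y box was in 36 of 47, or 76.6%, against 34.6%, and both elements were in 55.3% against 6.38%. The E2F element was in 2 of 47 windows, or 4.26%, against 3.16%. Taken by direction, at least 1 window with a CHR element was found for 17 of 21 genes that were higher in VHL cells in both media and for 6 of 7 that were lower in both, among those with a window. The NF-Y box was found for 18 of 21 and 6 of 7. Counted in the same way, 19.5% of all 27305 genes with a window had a CHR element and 39.7% an NF-Y box. A match of letters is not a bound site, and windows of a gene with several starts are not independent.

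The change of medium moved these genes far less than the change of line. In Vec cells 5 of the 45 genes fell after 6 h without cystine and none rose: CDC25A, SPAG5, BUB1, BUB1B and KIF18B. Over all genes, 4.18% were called in this comparison (2.06% lower, 2.11% higher). Among genes above the dim limit, tested alone, 8.97% were called (4.64% lower, 4.33% higher), against 11.1% of the mitotic genes in the same fit, all lower. At an unadjusted limma p under 0.05, 13 mitotic genes differed, or 28.9%, all of them lower, against 16.6% of all genes. The change was below 0 for 39 of the 45 genes and for 5698 of all 11963, with a median of -0.10 against 0.01. For 19 of the 45 genes all deprived arrays were under all control arrays, and for 1 they were above, where 10.7% and 11.9% of all genes gave the same pattern. The changes were small, from -0.32 to 0.08, and none of the 45 genes reached 1.5-fold, against 47 of all 11963.

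CDC25A fell most in Vec cells, with a change of -0.32 ± 0.06 (0.00952), from 9.85 or more on every control array to 9.69 or less on every deprived array. SPAG5, which protects spindle poles and kinetochore fibres, read 9.38, 9.26 and 9.33 in Vec control, 9.01, 9.15 and 9.03 in Vec deprived, 9.67, 9.80 and 9.79 in VHL control and 9.64, 9.67 and 9.68 in VHL deprived cells. Its change was -0.26 ± 0.06 (0.0225). BUB1 read 9.51, 9.57 and 9.50 in Vec control, 9.27, 9.34 and 9.29 in Vec deprived, 9.85, 9.78 and 9.71 in VHL control and 9.56, 9.61 and 9.54 in VHL deprived cells. BUB1B read 10.45, 10.40 and 10.41 in Vec control, 10.13, 10.23 and 10.23 in Vec deprived, 10.72, 10.80 and 10.81 in VHL control and 10.48, 10.68 and 10.55 in VHL deprived cells. Both checkpoint genes lay lower on all deprived than on all control arrays of each line, with changes in Vec cells of -0.23 ± 0.05 (0.0198) for BUB1 and -0.22 ± 0.06 (0.0454) for BUB1B. KIF18B read 10.04, 10.02 and 10.14 in Vec control, 9.80, 9.90 and 9.86 in Vec deprived, 9.95, 9.82 and 9.85 in VHL control and 9.73, 9.80 and 9.80 in VHL deprived cells, a change of -0.21 ± 0.05 (0.0417) in Vec cells.

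These calls in Vec cells rest on few arrays. Without any 1 of the 6 Vec arrays, between 1 and 3 of the 45 genes were called, and CDC25A was called in each such fit. SPAG5 was lost without Vec control replicate 1 (0.0939), Vec control replicate 3 (0.0692), Vec deprived replicate 1 (0.0923) or Vec deprived replicate 3 (0.0785). BUB1 was lost without Vec control replicate 1 (0.0578), Vec control replicate 2 (0.0775), Vec deprived replicate 1 (0.0782) or Vec deprived replicate 3 (0.0612). BUB1B was lost without any 1 of the 6 Vec arrays (limma adjusted p between 0.0818 and 0.157) or VHL control replicate 2 or 3 or VHL deprived replicate 3 (0.0579 to 0.0634). KIF18B was lost without any 1 of the 6 Vec arrays (0.0630 to 0.146) or VHL control replicate 2 or 3 or VHL deprived replicate 2 or 3 (0.0520 to 0.0596). With a fit of the Vec groups alone, CDC25A was the only call. Without Vec control replicate 2 and VHL deprived replicate 1 together, CDC25A narrowly missed the threshold (0.0540), and SPAG5 was the only call.

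On deprivation of Vec cells 4.18% of all genes were called, and 8.97% of genes above the dim limit, tested alone. No member of the kinetochore, anaphase or cytokinesis groups was called in Vec cells, nor FOXM1 or MKI67. The member with the smallest adjusted p was RACGAP1 among cytokinesis genes, at -0.17 ± 0.05 (0.111), ZWINT among kinetochore genes, at -0.12 ± 0.04 (0.142), and ESPL1 among anaphase genes, at -0.14 ± 0.06 (0.23). All 7 cytokinesis genes had changes below 0, from -0.17 to -0.09, as had 5698 of all 11963 genes. For 5 of the 7 the deprived arrays were all under the control arrays, as for 10.7% of all genes. The other cyclin and CDC25 genes gave -0.22 for CCNA2, -0.18 for CDK1, -0.13 for CDC25B, -0.10 for CCNB1, -0.08 for CDC25C and 0.08 for CCNB2, none of them called.

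**Figure D4:**
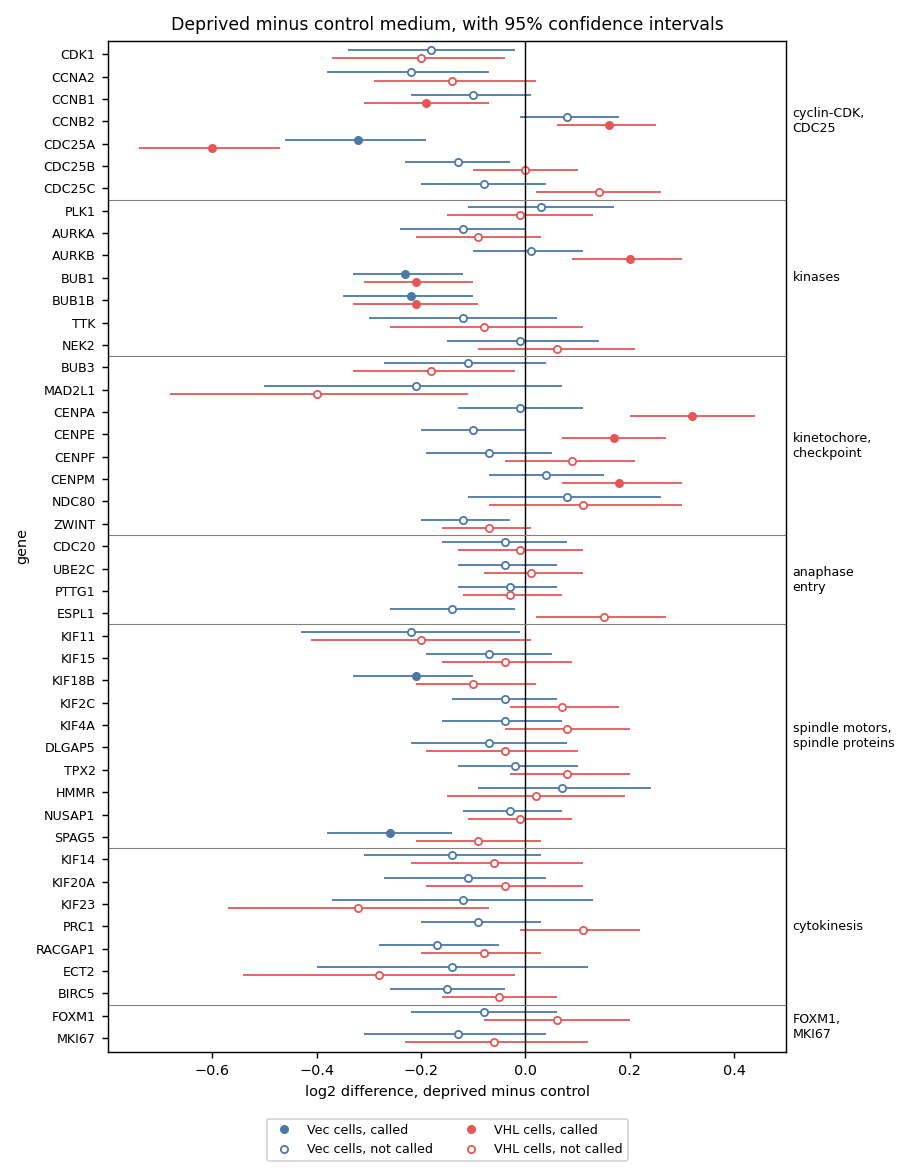
Difference between deprived and control medium on the log2 scale (x axis) for each of the 45 genes (y axis, by role), in Vec cells (blue) and VHL cells (red); bars are 95% confidence intervals, filled points were called at a limma adjusted p under 0.05. Nearly all blue points lie between -0.3 and 0.1, red points lie on both sides of 0, and CDC25A in VHL cells lies farthest out, at -0.60.

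In VHL cells 5 of the 45 genes rose and 4 fell on deprivation. The risers were CENPA, AURKB, CCNB2, CENPE and CENPM, and the fallers CDC25A, BUB1, BUB1B and CCNB1. In this comparison 11.6% of all genes were called (6.16% higher, 5.48% lower), and 21.8% of genes above the dim limit when tested alone (10.8% higher, 11% lower). In that second fit, where MAD2L1 was called as well, 22.2% of the mitotic genes were called, a share near that background. The median change was -0.04 against 0.01 for all genes, and 27 of the 45 changes were below 0. For 12 genes all deprived arrays were under all control arrays and for 8 above, against 14% and 16.5% of all genes.

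CDC25A was the one gene of the list past 1.5-fold, 1.52-fold lower in deprived VHL cells (-0.60 ± 0.06, 4.42e-05), from 8.80 to 9.01 on the control arrays to 8.28 to 8.32 on the deprived arrays. Of all 11963 genes, 95 changed by at least 1.5-fold. CENPA read 8.79, 8.77 and 8.89 in Vec control, 8.77, 8.75 and 8.89 in Vec deprived, 8.84, 8.93 and 8.90 in VHL control and 9.28, 9.15 and 9.21 in VHL deprived cells. It rose by 0.32 ± 0.06 in VHL cells (0.00276) and gave -0.01 ± 0.06 (0.947) in Vec cells. The other changes were near 0.2. AURKB, the kinase that acts beside CENPA at the centromere, read 9.34, 9.20 and 9.30 in Vec control, 9.26, 9.26 and 9.33 in Vec deprived, 9.25, 9.25 and 9.29 in VHL control and 9.50, 9.42 and 9.46 in VHL deprived cells. It rose by 0.20 ± 0.05 (0.0233), as did CENPE by 0.17 ± 0.05 (0.0358) and CENPM by 0.18 ± 0.05 (0.0417). The cyclins B parted, with a rise of 0.16 ± 0.04 (0.0325) for CCNB2 and a change of -0.19 ± 0.05 (0.039) for CCNB1. BUB1 changed by -0.21 ± 0.05 (0.0153) and BUB1B by -0.21 ± 0.06 (0.0323).

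Of these 9 calls, CDC25A and CENPA were kept in every alternative that measured them, while each of the other 7 was lost when some single array was left out. The only probe set of CENPA has a name ending in _x_at, so the alternative that drops such probe sets did not measure it. The second probe set of CDC25A, with a mean of 6.61, gave 0.07 and was not called. Between 2 and 7 of the 45 genes were called without any 1 of the 6 VHL arrays. AURKB was lost without VHL control replicate 1 (0.0742), VHL control replicate 2 (0.0733), VHL deprived replicate 1 (0.0823) or VHL deprived replicate 3 (0.061). BUB1 was lost without VHL control replicate 1 (0.0686) or VHL deprived replicate 3 (0.0569), and BUB1B without VHL control replicate 2 (0.0965), VHL control replicate 3 (0.0821), VHL deprived replicate 1 (0.122) or VHL deprived replicate 3 (0.0913). CCNB2 was lost without VHL control replicate 1 (0.114), VHL control replicate 2 (0.104), VHL deprived replicate 1 (0.061), VHL deprived replicate 2 (0.0936) or VHL deprived replicate 3 (0.0817). CENPE was lost without Vec deprived replicate 2 (0.0512), VHL control replicate 2 (0.122), VHL control replicate 3 (0.0932), VHL deprived replicate 1 (0.0793) or VHL deprived replicate 3 (0.122). CCNB1 and CENPM were lost without 8 and 8 of the 12 arrays (limma adjusted p between 0.0503 and 0.137 for CCNB1 and between 0.0528 and 0.140 for CENPM). MAD2L1 had the second largest change, -0.40 ± 0.13 (0.0711), which was called only without Vec control replicate 1 (0.0463) or with dim genes left out (0.0465). With each array centred on its median, 2 genes rose and 4 fell. Without Vec control replicate 2 and VHL deprived replicate 1 together, CDC25A and CENPA were the only calls, 1 in each direction.

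On deprivation of VHL cells 11.6% of all genes were called, and 21.8% of genes above the dim limit, tested alone. Spindle, anaphase and cytokinesis genes, FOXM1 and MKI67 had no call in VHL cells. The smallest adjusted p-values there belonged to KIF23 among cytokinesis genes, at -0.32 ± 0.11 (0.0894), ESPL1 among anaphase genes, at 0.15 ± 0.06 (0.118), KIF11 among spindle genes, at -0.20 ± 0.10 (0.202), and FOXM1, at 0.06 ± 0.06 (0.597). KIF11, CDK1 and MAD2L1 had their lowest value of the 12 arrays on VHL deprived replicate 1. For KIF23 that array gave 8.89 against 9.18 and 9.29, and for ECT2 10.67 against 10.99 and 11.05.

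The responses of the lines could be set side by side, since they share no arrays. CDC25A, BUB1 and BUB1B fell in both lines, where 1.23% of all genes were called lower in both, KIF18B and SPAG5 were called in Vec cells alone, and AURKB, CCNB1, CCNB2, CENPA, CENPE and CENPM in VHL cells alone. For 9 genes all deprived arrays were under all control arrays in both lines, namely CDK1, CCNA2, CCNB1, CDC25A, BUB1, BUB1B, ZWINT, KIF18B and BIRC5, a pattern shown by 5.45% of all genes. That count rests on the probe sets used. In VHL cells the other probe sets gave -0.02 and 0.04 for CDK1, -0.01 for CCNA2, 0.07 for CDC25A and -0.04 and 0.05 for BIRC5. In Vec cells they gave -0.18 and -0.20, -0.14, -0.20, and -0.09 and -0.11, and none of these was called. The dimmer ones of BUB1 gave 0.03 to 0.23 in VHL and -0.09 to 0.08 in Vec cells. For CENPE and ESPL1 all deprived arrays were under all control arrays in Vec cells and above them in VHL cells, on the probe sets used. Of all genes 0.677% parted in this way or the reverse. The second probe set of ESPL1, with a mean of 9.55, changed by -0.09 in Vec and 0.04 in VHL cells, neither called. ESPL1 read 9.68, 9.67 and 9.78 in Vec control, 9.58, 9.54 and 9.60 in Vec deprived, 9.73, 9.92 and 9.86 in VHL control and 10.05, 9.95 and 9.94 in VHL deprived cells. CENPE read 9.17, 9.20 and 9.21 in Vec control, 9.09, 9.09 and 9.10 in Vec deprived, 9.21, 9.09 and 9.10 in VHL control and 9.29, 9.26 and 9.35 in VHL deprived cells.

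The difference between the responses, VHL minus Vec, was tested directly and was called for 0 of the 45 genes, against 16 of all 11963 genes, or 0.134%, and 0.3% of genes above the dim limit, tested alone. At an unadjusted limma p under 0.05, 7 of the 45 genes differed, or 15.6%, against 9.83% of all genes. They were CENPA at 0.34 ± 0.08 (0.19 after adjustment), CENPE at 0.27 ± 0.07 (0.217), ESPL1 at 0.28 ± 0.08 (0.286), CDC25C at 0.22 ± 0.08 (0.375), PRC1 at 0.20 ± 0.08 (0.421), AURKB at 0.19 ± 0.07 (0.396) and CDC25A at -0.28 ± 0.09 (0.318). The difference was above 0 for 36 of the 45 genes and 6253 of all genes, with a median of 0.07 against 0.01. So no gene of the list was shown to respond differently in the lines, and calls made in 1 line alone do not show it. The 95% intervals, not adjusted for the number of genes, ran from 0.17 to 0.51 for CENPA and from -0.47 to -0.09 for CDC25A. The second probe set of CDC25A, with a mean of 6.61, gave 0.28 instead, opposite in sign (limma adjusted p = 0.435 over probe sets). The second of ESPL1 gave 0.13, and the other probe sets of CDC25C gave 0.47 and -0.01, none called.

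For 15 of the 45 genes the array has more than 1 probe set that names that gene alone, which gives 72 for the 45 genes, and the one with the highest mean was used. Fitted one by one, with adjustment over all probe sets that name 1 gene, these gave the same picture of the lines for some genes and not for others. Both probe sets of HMMR gave 1.06 and 1.04 in control medium, both of NEK2 0.86 and 0.75, both of NUSAP1 0.58 and 0.60, and the brighter pair of CENPF 0.87 and 0.86, while the third, dim at 5.34, gave 0.08. All 3 of CDK1 were lower in VHL cells, at -0.46, -0.54 and -0.52, and so were all 4 of BUB3, from -0.74 to -0.36, and both of CDC25A, at -1.02 and -0.55. The brighter pair of AURKA gave 0.51 and 0.48, and the third, at a mean of 7.06, gave 0.10.

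Other genes depended on the probe set. The brightest of BIRC5 gave 0.03 in control medium (limma adjusted p = 0.738 over probe sets), but another, with a mean of 10.27, gave 0.62 (4.36e-07), so the difference between the lines for BIRC5 depends on the probe set. The second probe set of CCNA2 was lower in VHL cells in control medium, at -0.20 (0.0183), where the one used gave -0.06 (0.542), and the second of ESPL1 was higher, at 0.21 (0.00495), where the one used gave 0.12 (0.110). The 4 probe sets of MKI67 gave -0.59, -0.34, -0.16 and -0.07, the last not called (0.361). Those of CDC25C gave 0.15 (0.0506) on the one used, 0.01 (0.968) and -0.02 (0.854), so none was called in control medium when fitted this way. In deprived medium they gave 0.37 and 0.48, both called, and -0.03, not called. The fall of CDC25A on deprivation of VHL cells was -0.60 on the brighter probe set and 0.07 (0.598) on the other, whose mean of 6.61 is near the dim limit. The second probe set of HMMR rose by 0.24 in VHL cells on deprivation (0.00760), where the first gave 0.02. Of the 5 probe sets of BUB1, the one used has a mean of 9.54 and the others lie between 4.66 and 7.22, and none of those others was called in any comparison.

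**Figure D5:**
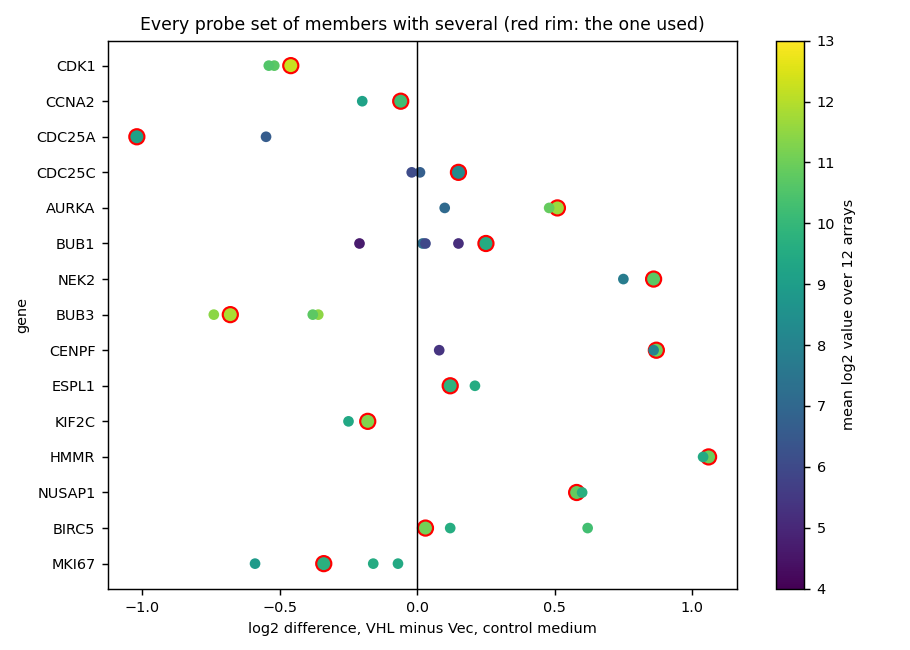
Difference between VHL and Vec cells in control medium on the log2 scale (x axis) for each probe set of the 15 genes with more than 1 (y axis); colour gives the mean log2 value over 12 arrays and a red rim marks the probe set used. Points of HMMR, NEK2, NUSAP1 and CDK1 lie together, those of BIRC5 run from 0.03 to 0.62, the 4 dimmer ones of BUB1 run from -0.21 to 0.15, and the dim one of CENPF lies at 0.08.

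Other genes of the cell cycle, from lists that hold none of the 45, were counted in the same fits. Between the lines 23.1% of all genes were called higher and 23% lower in control medium, and 24.2% and 23% in deprived medium. Those shares were 33%, 32.2%, 33.6% and 32.1% for genes above the dim limit, tested alone. On deprivation 2.11% of all genes rose and 2.06% fell in Vec cells, and 6.16% rose and 5.48% fell in VHL cells. Of 41 measured other mitotic genes, such as condensins and further kinetochore subunits, 16 were higher and 10 lower in VHL cells in control medium and 16 and 9 in deprived medium, with medians of -0.01 and 0.08. CKAP2, a spindle protein, was higher in control medium by 1.18 ± 0.08 (6.05e-08), NCAPD2, a condensin subunit, by 0.94 ± 0.07 (1.08e-07), and ASPM, a spindle pole protein, by 0.79 ± 0.05 (5.48e-08) in deprived medium. On deprivation 9 of the 41 fell and none rose in Vec cells, with -0.29 ± 0.05 (0.00891) for ASPM, and 11 fell and 1 rose in VHL cells, with -0.31 ± 0.05 (0.00299) for NCAPG, another condensin subunit.

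Among 14 measured subunits of the anaphase-promoting complex and brakes on mitosis, 2 were higher and 4 lower in VHL cells in each medium. These were 14.3% and 28.6% of the list, against 23.1% and 23% of all genes in control medium and 24.2% and 23% in deprived medium. WEE1, the kinase that places the inhibitory phosphate on CDK1, differed by -0.68 ± 0.07 (3.99e-06) in control and -0.90 ± 0.07 (2.77e-07) in deprived medium, and MAD1L1, the partner of MAD2, by -0.53 ± 0.07 (3.23e-05) and -0.49 ± 0.07 (5.57e-05). On deprivation PKMYT1, the other inhibitory kinase of CDK1, was the only call in Vec cells, at -0.29 ± 0.07 (0.0454), and UBE2S, which extends ubiquitin chains for the complex, the only call in VHL cells, at 0.16 ± 0.05 (0.0439). Of 14 measured E2F, RB and MuvB regulators, 4 were higher and 3 lower in VHL cells in control medium and 5 and 3 in deprived medium. TFDP1 and TFDP2, the dimerization partners of E2F, went opposite ways, at -0.92 ± 0.04 (1.64e-09) and 0.81 ± 0.06 (7.20e-08) in deprived medium, and RB1, the retinoblastoma protein that restrains E2F, gave 0.76 ± 0.10 (2.85e-05). None of the 14 was called on deprivation in either line, where the smallest adjusted p was 0.110 for E2F8 in Vec cells, at -0.33 ± 0.10, and 0.0636 for RB1 in VHL cells, at -0.31 ± 0.10.

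Genes of DNA replication and S phase entry, 34 measured, leaned the other way between the lines, with 9 higher and 16 lower in VHL cells in control medium and 8 and 16 in deprived medium, at medians of -0.07 and -0.15 against 0.18 and 0.28 for the 45 mitotic genes. POLA1, of the polymerase that starts each new strand, differed by -1.08 ± 0.06 (3.73e-09), and RFC3, a subunit of the clamp loader, by 1.05 ± 0.06 (4.82e-09). On deprivation 7 of the 34 fell and none rose in Vec cells, and 15 fell and 1 rose in VHL cells, with medians of -0.11 and -0.17 against -0.10 and -0.04 for the mitotic genes. GINS1, of the replicative helicase, changed by -0.34 ± 0.04 (3.96e-04) in Vec and -0.47 ± 0.04 (1.36e-05) in VHL cells. The lists were not tested against each other.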

How the data were processed

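The deposited values are log2 expression for 22215 probe sets on 12 arrays, used as the authors deposited them; their normalization is not given in the sources used here. Symbols were updated through RefSeq (GRCh38.p14). For each of 11963 genes the brightest probe set naming that gene alone was taken. A model with a mean for each of the 4 groups was fitted in limma 3.58.1 (R 4.3.3; 8 residual degrees of freedom), and two-sided p-values were adjusted over all genes (Benjamini-Hochberg). Errors after ± are standard errors, with 3 arrays per group, whose number limits precision. The code was tested on simulated data. Residuals of arrays with equal replicate numbers correlated between -0.268 and 0.235 (18 pairs, median 0.053), and those with other numbers between -0.350 and 0.291 (36 pairs, median -0.018). These values do not settle whether arrays were paired. The labels do not say that equal numbers were handled together, so arrays were treated as unpaired.

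Full values are given, per role and comparison, for up to 3 called genes by smallest adjusted p; CDK1 was added after its values were seen, and other members are given in shorter form. Members, lists and motifs were chosen with earlier results of these data known. Alternatives were quantile normalization, median centring, averaged probe sets, dropping _x_at and _s_at probe sets or dim genes, a variance trend with robust moderation, the compared groups alone, a replicate block and leaving out each array. Leaving out 2 arrays together, and the lower quartile of each array as a covariate, were added after the data were seen.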

Additional observations from a re-analysis of the deposited data

How the results depend on the processing

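Of the calls between the lines, 28 of 37 in control medium and 31 of 41 in deprived medium were kept in every one of up to 22 alternatives that measured the gene. On deprivation none of 5 calls in Vec cells and 2 of 9 in VHL cells were. No alternative called a difference between the responses for any of the 45 genes. For a gene called in neither setting a change of sign was not counted as a reversal.

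The number of the 45 genes called in Vec cells on deprivation was 5 as reported, 9 with a variance trend and robust moderation, 3 of 30 measured genes when _x_at and _s_at probe sets were dropped, 1 with the compared groups alone, 1 without both Vec control replicate 2 and VHL deprived replicate 1, and 3 with the lower quartile as a covariate. Leaving out 1 array gave between 1 and 5. In VHL cells it was 9 as reported, 5 without those probe sets, 2 with the compared groups alone and 2 without both arrays, and leaving out 1 array gave between 2 and 10. Between the lines, 23 in control and 24 in deprived medium were called without those probe sets, for which fewer genes were measured.

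The median change of the 45 genes moved from -0.10 in Vec cells to -0.08 without those probe sets and to -0.07 without both arrays or with the quartile covariate, and from -0.04 in VHL cells to -0.06 with median centring. Leaving out 1 array gave -0.11 to -0.07 in Vec cells. For the difference of responses the median was 0.04 with median centring and 0.04 to 0.09 without 1 array. Between the lines it was 0.14 to 0.21 in control medium and 0.26 to 0.35 in deprived medium without 1 array, and in deprived medium 0.33 without those probe sets and 0.35 without both arrays.

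BUB1 in VHL cells gave 0.03 when its probe sets were averaged (limma adjusted p = 0.669), 4 of which are much dimmer. CDC25C between the lines gave -0.02 (0.862) in control and -0.03 (0.784) in deprived medium when _x_at and _s_at probe sets were dropped, which leaves its dimmest one. The same step left AURKA and CENPF with their dimmest probe sets, at 0.10 (0.368) for AURKA in control medium and 0.08 (0.487) and 0.02 (0.855) for CENPF in control and deprived medium, and BIRC5 was called at 0.62 (4.22e-07) in control medium. With the replicate block, 4 of the 45 genes were called in Vec cells, 6 in VHL cells, 35 between the lines in control and 40 in deprived medium. The block ended the calls of KIF18B in Vec cells (0.0658), CCNB1 (0.0501), CENPE (0.0515) and CENPM (0.0533) in VHL cells, CDC25C (0.0543) and CDC20 (0.0578) in control medium and BIRC5 (0.0657) in deprived medium.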
